A study of Mus musculus with 24 samples.

Results

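The 10 genes described here are Grem1, Chrdl1, Nog, Chrd, Bambi, Smad6, Smad7, Id1, Id2 and Id3, which were taken by name as antagonists and feedback targets of bone morphogenetic protein (BMP) signaling. All 10 were measured, each by 1 probe set, among 19938 genes with expression values. The tissue was the anterior heart field (AHF), the pharyngeal mesoderm that builds the cardiac outflow tract and right ventricle, micro-dissected as the distal pharyngeal apparatus from mouse embryos at E9.5 with 19 to 21 somite pairs and profiled on 24 Affymetrix Mouse Gene ST arrays. Tbx1 LOF embryos were Mef2c-AHF-Cre/+;Tbx1 f/- or Mef2c-AHF-Cre/+;Tbx1 f/f, β-cat LOF embryos were Mef2c-AHF-Cre/+;β-catenin f/f, and rescue embryos had the Tbx1 LOF genotype together with 1 floxed β-catenin allele. Each of these 3 genotypes had 4 arrays and its own 4 control arrays. The study's methods describe Cre-free controls, Tbx1 f/+ for Tbx1 LOF, β-catenin f/+ for β-cat LOF and both floxed alleles for rescue, whereas the deposited labels name wild type and Cre-carrying Tbx1 f/+ littermates, and in a design with Cre-free controls Cre and deletion cannot be told apart. Recombination is limited to the Mef2c-AHF-Cre lineage, each array held tissue pooled from several embryos, and the Tbx1 f/- embryos also lacked Tbx1 on 1 allele in every other tissue.

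BMP ligands bind receptor serine kinases, which phosphorylate Smad1, Smad5 and Smad9, and these enter the nucleus with Smad4. The pathway is restrained outside the cell by secreted proteins that trap the ligands (Noggin, Chordin, Chordin-like 1 and Gremlin 1), at the membrane by the pseudoreceptor Bambi, and inside the cell by the inhibitory Smads, Smad6 and Smad7, which are themselves induced by the signal. The Id genes, encoding helix-loop-helix proteins that sequester E proteins, are among the most direct targets of BMP signaling, and in the heart-forming region BMP signals promote myocardial differentiation of progenitor cells.

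In the Tbx1 LOF arrays Tbx1 itself read 10.98, 11.28, 11.43 and 11.40 on the log2 scale, against 11.91, 11.77, 11.98 and 11.99 in its controls, a log2 fold change of -0.64 ± 0.09 (SE; limma adjusted p = 0.00626). In rescue arrays it was lower by a log2 fold change of -0.31 ± 0.09 (SE; limma adjusted p = 1). The β-catenin gene Ctnnb1 read 13.18 ± 0.09 in β-cat LOF and 13.20 ± 0.02 in control arrays (SD, n = 4 each), so its total probe signal did not mark the deletion. In rescue all 4 arrays lay below their controls, by a log2 fold change of only -0.05 ± 0.06 (SE; limma unadjusted p = 0.409). In Tbx1 LOF the log2 fold change of Ctnnb1 was -0.035 ± 0.06 (SE). By qRT-PCR the study found β-catenin mRNA increased in Tbx1 LOF and reduced in rescue tissue. Of 10 AHF markers listed, 9 were measured, and their mean level lay between 10.3 and 10.7 on all arrays, with Isl1, a defining gene of this field, between 10.5 and 10.9. Single AHF markers did differ, with Fgf10, a growth factor of this field, Eya1 and Tbx1 lower (log2 fold changes -0.39, -0.24 and -0.64) and Hand2 higher (0.25) in Tbx1 LOF, and Fgf10 (-0.47) and Tbx1 lower in rescue, all at an unadjusted p under 0.05 and without overlap of the groups. Genes listed as heart tube markers, many of them muscle structural genes, were also present, although the dissection was meant to leave out the heart tube. Control replicate 2 of the β-cat experiment stood apart with a heart tube list mean of 12.9, against 9.66 to 11.4 on the other 23 arrays. In such bulk tissue, fewer cells of a type and less RNA per cell cannot be told apart.

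The proximal promoter sequences of 5 of the 10 genes (Chrd, Grem1, Smad6, Id2 and Id3) were matched by symbol in the RefSeq table for GRCm38.p6. For Bambi, Chrdl1, Nog, Smad7 and Id1 none is printed. The windows run from 250 bases before to 50 bases after the annotated start and were searched on both strands for GGCGCC (a GC-rich Smad element), CAGAC (the Smad box), CTTTGA (the core of the TCF/LEF site) and AGGTGT (a T-box site). No match of one of these motifs overlapped a match of another in the windows of the 5 genes. The windows of Grem1 (chr2:113758599-113758898, minus strand) and Chrd (chr16:20732877-20733176, plus strand) are shown because they belong to secreted antagonists and both hold the GC-rich element. The 2 genes differ in their readout below, Grem1 being lower than its controls and Chrd level in Tbx1 LOF tissue, although Chrd gave a weak signal in every group. Each reads 5′ to 3′ along the gene, and capitals mark GGCGCC and CAGAC on either strand.
Grem1: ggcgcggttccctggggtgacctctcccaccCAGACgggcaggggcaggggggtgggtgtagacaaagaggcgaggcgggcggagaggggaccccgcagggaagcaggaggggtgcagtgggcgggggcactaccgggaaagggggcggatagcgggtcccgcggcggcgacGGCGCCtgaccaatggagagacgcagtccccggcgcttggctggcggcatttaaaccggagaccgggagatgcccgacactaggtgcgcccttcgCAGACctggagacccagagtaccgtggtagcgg
Chrd: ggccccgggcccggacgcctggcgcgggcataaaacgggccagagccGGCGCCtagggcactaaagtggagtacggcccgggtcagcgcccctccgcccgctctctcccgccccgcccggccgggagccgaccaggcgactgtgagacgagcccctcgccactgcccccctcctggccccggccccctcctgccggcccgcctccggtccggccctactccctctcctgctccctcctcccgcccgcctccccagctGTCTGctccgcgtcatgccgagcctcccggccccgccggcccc
The GGCGCC match began 78 bases before the start in Grem1 and 203 bases before it in Chrd. Grem1 had CAGAC 219 bases before and 17 bases after the start, and Chrd had it on the opposite strand 7 bases after the start. Id2 also held GGCGCC, Id3 held CAGAC at 2 positions and AGGTGT at 1, the Smad6 window held none of the 4 motifs, and CTTTGA was in none of the 5 windows. Across 32851 promoters of the same length, 11.9% held GGCGCC, 49.6% CAGAC, 16.0% CTTTGA and 13.7% AGGTGT, so these matches describe the windows and name no binding site.

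Loss of Tbx1 was accompanied by lower readings of 2 secreted antagonists and a higher reading of the membrane antagonist, while the Id genes stayed near their control level. Chrdl1, which encodes the BMP-binding protein Chordin-like 1, read 8.70, 8.81, 8.48 and 8.48 in Tbx1 LOF arrays, against 9.11, 9.08, 8.94 and 8.94 in control arrays. Every Tbx1 LOF array was below every control array, and the log2 fold change was -0.40 ± 0.09 (SE), that is 0.757-fold. Grem1, which encodes the DAN-family antagonist Gremlin 1 that binds BMP2, BMP4 and BMP7, read 9.37, 9.42, 9.97 and 9.89 in Tbx1 LOF arrays and 9.97, 10.07, 10.03 and 10.08 in control arrays. The groups again did not overlap, but replicates 1 and 2 carried most of the difference, with replicate 3 of the LOF group just under the lowest control. The log2 fold change of Grem1 was -0.38 ± 0.11 (SE), and it was -0.62 within replicates 1 and 2 and -0.13 within replicates 3 and 4, whereas that of Chrdl1 was -0.34 and -0.46 in the same split. Bambi, a receptor-like protein without a kinase domain that blocks receptor complexes and is itself induced by BMP, read 11.56, 11.17, 11.36 and 11.27 in Tbx1 LOF arrays, against 11.05, 10.84, 11.08 and 11.08 in control arrays. All 4 Tbx1 LOF arrays lay above the controls, and the log2 fold change of 0.33 ± 0.08 (SE), or 1.25-fold, was 0.42 within replicates 1 and 2 and 0.23 within replicates 3 and 4.

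Of these 3 genes none passed the adjustment over all genes. The limma adjusted p was 0.181 for Chrdl1, 0.344 for Bambi and 0.489 for Grem1, from unadjusted p of 0.000124, 0.000638 and 0.00243 in the fit across all genes. A two-sided exact permutation test gave 0.0286 for each, the smallest p that 4 arrays against 4 allow. Chrdl1 passed the adjusted threshold without Tbx1 LOF replicate 2 (limma adjusted p = 0.0262) and with replicates 1 and 2 against 3 and 4 as a term (limma adjusted p = 0.0266), and its adjusted p ran up to 0.675 over the other settings tried. The remaining secreted antagonists, Noggin and Chordin, which bind BMP ligands with high affinity and are best known from the organizer and notochord, showed no such difference. Nog read 8.51 ± 0.24 in Tbx1 LOF and 8.52 ± 0.08 in control arrays (SD, n = 4 each), with a 95% confidence interval of the log2 fold change from -0.23 to 0.21. Chrd read 7.89 ± 0.11 in Tbx1 LOF and 7.94 ± 0.04 in control arrays (SD, n = 4 each), and its interval ran from -0.15 to 0.06.

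**Figure D1:**
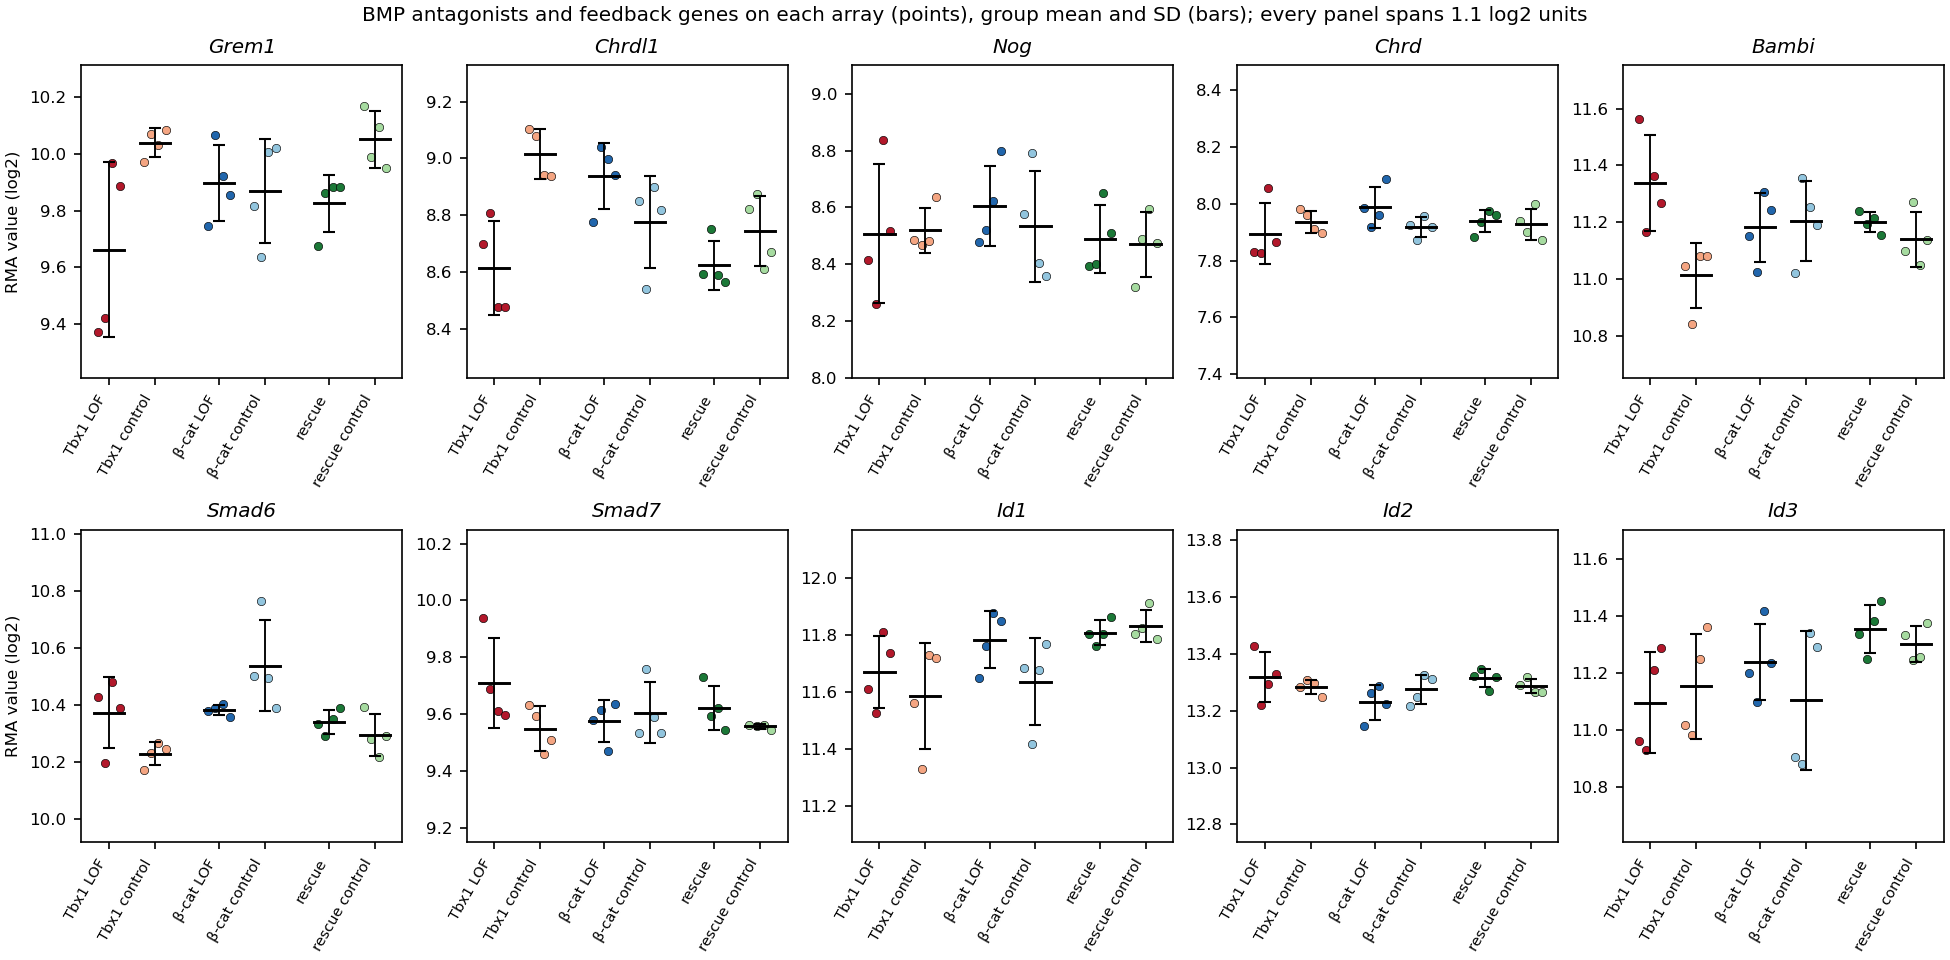
RMA values (log2 scale) of the 10 genes on each of the 24 arrays; points are arrays in replicate order, horizontal lines the group means and bars the SD over 4 arrays, and all panels span the same number of log2 units. The 4 Tbx1 LOF points of Grem1 and Chrdl1 lie below all 4 Tbx1 control points and those of Bambi lie above them, while Id2 hardly moves in any group.

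The inhibitory Smads, which compete with the receptor Smads or recruit ubiquitin ligases to the receptors, were slightly higher in Tbx1 LOF arrays. Smad6 read 10.43, 10.19, 10.48 and 10.39 in Tbx1 LOF arrays, against 10.17, 10.23, 10.27 and 10.25 in control arrays, so that 3 of 4 LOF arrays exceeded every control. Smad7 read 9.94, 9.69, 9.61 and 9.60 in Tbx1 LOF arrays and 9.63, 9.59, 9.46 and 9.51 in control arrays, and 2 of 4 LOF arrays exceeded every control. The log2 fold changes were 0.14 ± 0.07 for Smad6 and 0.16 ± 0.07 for Smad7 (SE; limma unadjusted p = 0.0405 and 0.0285, adjusted p = 1 for both), and the exact permutation test gave 0.114 for each. The log2 fold change of Smad6 kept its sign when single arrays of the experiment were left out. Its size ran from 0.11 without LOF replicate 3 to 0.20 without LOF replicate 2 (limma unadjusted p = 0.134 and 0.00469). Without Tbx1 LOF replicate 1, the array with the highest Bambi and Smad7 readings, the log2 fold change was 0.08 for Smad7 (limma unadjusted p = 0.191) and 0.13 for Smad6 (limma unadjusted p = 0.0967). Smad6 also missed the unadjusted threshold without any of 5 other arrays of the experiment, and Smad7 without control replicate 3 or 4 (0.13 and 0.15).

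The Id genes overlapped their controls with loss of Tbx1, and their differences were small. Id1 read 11.61, 11.53, 11.81 and 11.74 in Tbx1 LOF arrays and 11.56, 11.33, 11.73 and 11.72 in control arrays. Id3 read 10.96, 10.93, 11.21 and 11.29 in Tbx1 LOF arrays and 11.02, 10.98, 11.25 and 11.36 in control arrays. In both groups replicates 3 and 4 were higher than replicates 1 and 2 for each of these genes, a difference between replicate numbers larger than that between genotypes. Id2 was the steadiest of the 10 genes, with a residual SD of 0.052 against a median of 0.112 over all genes, and read 13.32 ± 0.09 in Tbx1 LOF and 13.28 ± 0.03 in control arrays (SD, n = 4 each). The 95% confidence intervals of the log2 fold changes ran from -0.09 to 0.26 for Id1, from -0.06 to 0.13 for Id2 and from -0.28 to 0.16 for Id3. Between same-numbered arrays, LOF minus control, Id3 differed by -0.06, -0.05, -0.04 and -0.08 and Id1 by 0.05, 0.20, 0.08 and 0.02. Each was of 1 sign at all 4 numbers, whereas Id2 differed by 0.15, -0.09, -0.003 and 0.08. The labels give same-numbered arrays only the number in common, and do not say that they are pairs. With the replicate block the intervals were narrower for Id1 and Id3, from -0.04 to 0.21 and from -0.17 to 0.06, and still held 0.

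Counted together, 0 of the 10 genes had an adjusted p under 0.05 in Tbx1 LOF, where limma called 0.0301% of all genes. At an unadjusted p under 0.05, 3 were higher (Bambi, Smad6 and Smad7) and 2 lower (Chrdl1 and Grem1), against 2.17% of all genes higher and 1.95% lower. Groups did not overlap for 1 higher gene (Bambi) and 2 lower genes (Chrdl1 and Grem1), against 1.32% and 0.973% of all genes. The median log2 fold change of the 10 genes was 0.01 and that of all genes -0.01, so the genes did not shift together in one direction, and none of the 10 reached a 1.5-fold change in any experiment.

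Loss of β-catenin left most of the 10 genes near their controls, and the lowest p belonged to an inhibitory Smad. Smad6 read 10.38, 10.39, 10.40 and 10.36 in β-cat LOF arrays, against 10.50, 10.76, 10.49 and 10.39 in control arrays. The LOF arrays were nearly identical. Control replicates 1, 2 and 3 lay above all of them, replicate 2 the furthest, while control replicate 4 overlapped them. The log2 fold change was -0.16 ± 0.07 (SE; limma unadjusted p = 0.0286, adjusted p = 0.851; exact permutation p = 0.0857). Without control replicate 2 it was -0.08 (limma unadjusted p = 0.194), and without control replicate 4 it was -0.21 (limma unadjusted p = 0.00636). Control replicate 2 also carried the heart tube list mean of 12.9 given above. Over the experiment, 10 of 11 heart tube markers (such as Nppa, encoding atrial natriuretic peptide, log2 fold change -2.68) and 5 of 10 endothelial markers (among them Pecam1, -0.24, and Tek, -0.37) were lower at an unadjusted p under 0.05. The array means of the endothelial list ran from 10.24 to 10.33 in β-cat LOF and from 10.36 to 10.49 in control arrays, and the part of these cell types in the Smad6 reading was not tested.

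None of the 4 secreted antagonists passed the unadjusted threshold in β-cat LOF tissue, and all 4 overlapped their controls. Chrdl1 read 8.78, 9.04, 8.9996 and 8.94 in β-cat LOF arrays, against 8.85, 8.54, 8.90 and 8.82 in control arrays, and 3 of 4 LOF arrays lay above all controls. Its log2 fold change was 0.16 ± 0.09 (SE; limma adjusted p = 0.855), and 0.08 without control replicate 2, the lowest control. Grem1 had a log2 fold change of 0.03 ± 0.11 and Bambi of -0.02 ± 0.08 (SE), with 95% confidence intervals from -0.20 to 0.26 and from -0.19 to 0.15. Id1 and Id3 had log2 fold changes of 0.15 ± 0.08 and 0.13 ± 0.11 (SE; limma adjusted p = 0.855 and 0.871), and of 0.07 and 0.06 without control replicate 2, the lowest control for both. Without LOF replicate 1 the changes were 0.22 for Chrdl1, 0.19 for Id1 and 0.15 for Id3. With the replicate block the 95% confidence intervals left out 0. They ran from 0.002 to 0.32 for Chrdl1, from 0.02 to 0.27 for Id1 and from 0.02 to 0.25 for Id3 (limma adjusted p = 0.55, 0.504 and 0.502). The log2 fold changes of Nog, Chrd, Smad7 and Id2 lay between -0.05 and 0.07. Limma called 0% of all genes at an adjusted p under 0.05, and 0 of the 10. At an unadjusted p under 0.05, 0 of the 10 were higher and 1 lower (Smad6), against 2.83% and 2.88% of all genes. In none of the 10 did the groups fail to overlap, against 2.06% of all genes higher and 0.787% lower.

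In rescue embryos, where Tbx1 was deleted and the β-catenin dosage reduced, Grem1 alone of the 10 genes separated from its controls. It read 9.68, 9.86, 9.88 and 9.88 in rescue arrays, against 10.17, 9.99, 10.09 and 9.95 in control arrays, and all 4 rescue arrays were below the controls. The log2 fold change was -0.22 ± 0.11 (SE; limma unadjusted p = 0.0545, adjusted p = 1; exact permutation p = 0.0286). Chrdl1 read 8.59, 8.75, 8.59 and 8.56 in rescue arrays, against 8.82, 8.88, 8.61 and 8.67 in control arrays, with 3 of 4 rescue arrays below all controls and a log2 fold change of -0.12 ± 0.09 (SE; limma adjusted p = 1). Bambi read 11.24, 11.19, 11.21 and 11.15 in rescue arrays and 11.10, 11.27, 11.05 and 11.14 in control arrays, an overlap with a log2 fold change of 0.06 ± 0.08 (SE). Thus the directions of Grem1, Chrdl1 and Bambi were those of Tbx1 LOF with smaller values. Tbx1 itself was also less reduced in rescue, at -0.31 against -0.64 in Tbx1 LOF. That difference was -0.34 ± 0.13 (SE; limma unadjusted p = 0.0195). A weaker reduction of Tbx1 and the reduced β-catenin dosage cannot be told apart in these smaller values. Smad6 and Smad7 had log2 fold changes of 0.05 and 0.06, and Id1, Id2, Id3, Nog and Chrd lay between -0.02 and 0.05. Of all genes, 0% had an adjusted p under 0.05, and 0 of the 10 did. Likewise 0 of the 10 had an unadjusted p under 0.05, against 0.371% of all genes higher and 0.898% lower. Groups did not overlap for 0 higher genes and 1 lower gene, Grem1, against 0.737% and 2.24% of all genes, so the separation of Grem1 stands among many genes that were slightly lower in rescue arrays.

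**Figure D2:**
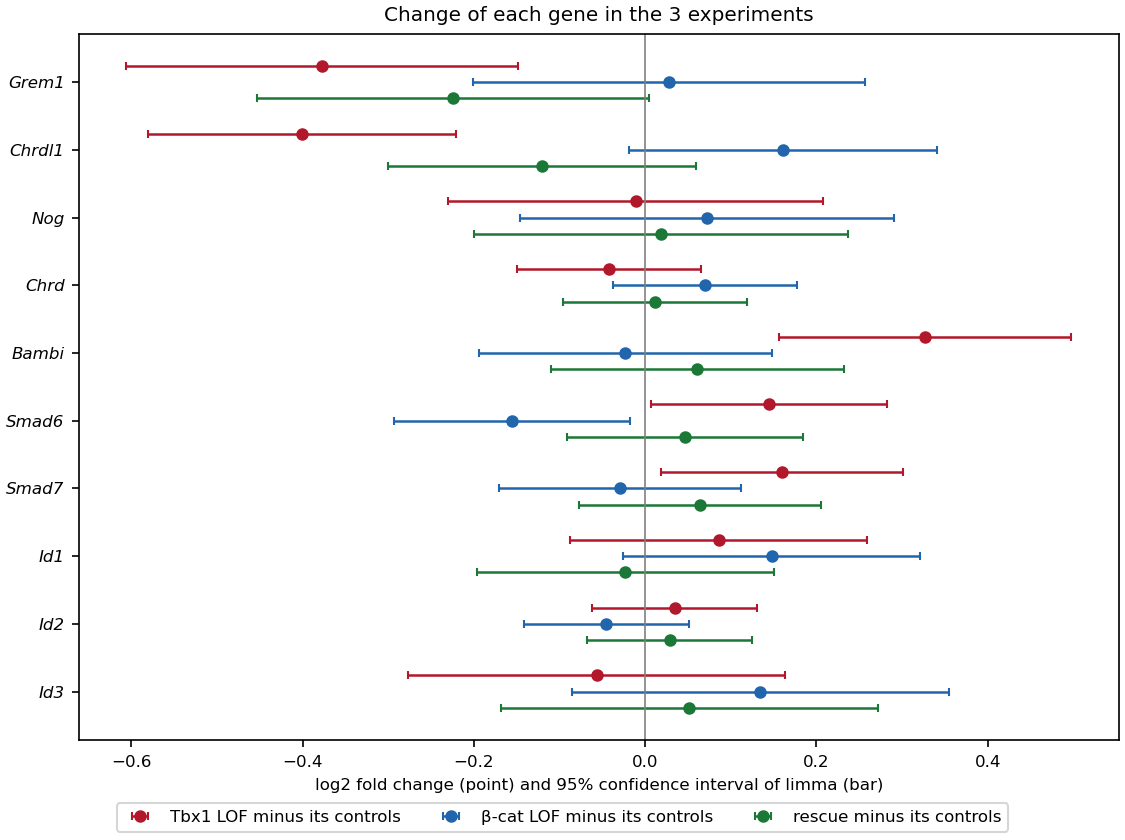
Log2 fold change of each of the 10 genes (points) with its 95% confidence interval from limma (bars) in Tbx1 LOF, β-cat LOF and rescue tissue, each minus its own controls. For Grem1, Chrdl1 and Bambi the Tbx1 LOF interval leaves out 0, the rescue value lies between Tbx1 LOF and 0, and the β-cat LOF interval holds 0.

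The changes in the 3 experiments, which share no arrays, were then set against each other in the same fit. Between Tbx1 LOF and β-cat LOF the change of Chrdl1 differed by -0.56 ± 0.12 on the log2 scale (SE; limma unadjusted p = 0.000138, adjusted p = 0.0946), that of Grem1 by -0.40 ± 0.16 (adjusted p = 0.519), that of Bambi by 0.35 ± 0.12 (adjusted p = 0.364) and that of Smad6 by 0.30 ± 0.09 (adjusted p = 0.296). The adjusted p of the remaining 6 genes lay between 0.816 and 0.987. Thus 0 of the 10 differed at an adjusted p under 0.05, against 0.0502% of all genes, and at an unadjusted p under 0.05 there were 2 with a higher change in Tbx1 LOF (Bambi and Smad6) and 2 with a lower one (Chrdl1 and Grem1), against 3.41% and 3.04% of all genes. Between Tbx1 LOF and rescue the change of Chrdl1 differed by -0.28 ± 0.12 and that of Bambi by 0.27 ± 0.12 (SE; limma adjusted p = 1 for both), whereas Grem1 differed by -0.15 with a 95% confidence interval from -0.48 to 0.17. Without Tbx1 control replicate 2 neither Chrdl1 nor Bambi kept an unadjusted p under 0.05 here. They made 1 higher and 1 lower gene, against 0.943% and 0.767% of all genes, with 0 of 10 genes and 0% of all genes at an adjusted p under 0.05. Between β-cat LOF and rescue the change of Chrdl1 differed by 0.28 ± 0.12 and that of Smad6 by -0.20 ± 0.09 (SE; limma adjusted p = 0.938 for both), 1 higher and 1 lower gene against 3.02% and 1.83% of all genes, again with 0 of 10 genes and 0% of all genes at an adjusted p under 0.05. Neither kept an unadjusted p under 0.05 without β-cat control replicate 2.

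The control groups themselves were not level for all 10 genes, and this bears on each change given above. Control Smad6 averaged 10.23 ± 0.04 in the Tbx1 experiment, 10.54 ± 0.16 in the β-cat experiment and 10.29 ± 0.07 in the rescue experiment (SD, n = 4 each; limma F test, adjusted p = 0.0605). Smad6 in the mutants lay within a narrow span, at 10.37 in Tbx1 LOF, 10.38 in β-cat LOF and 10.34 in rescue, while the control means spanned more. Control Chrdl1 averaged 9.02 ± 0.09, 8.78 ± 0.16 and 8.75 ± 0.12 in the Tbx1, β-cat and rescue experiments (SD, n = 4 each; limma F test, adjusted p = 0.234), while Chrdl1 averaged 8.62 in both Tbx1 LOF and rescue arrays. Control Grem1 averaged 10.04 and 10.05 in the Tbx1 and rescue experiments, and the mutants 9.66 ± 0.31 in Tbx1 LOF and 9.83 ± 0.10 in rescue arrays (SD, n = 4 each). Limma called 0.341% of all genes different among the control groups at an adjusted p under 0.05, and 0 of the 10. The experiments differ in cross and possibly in array batch, which cannot be told apart here.

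Other genes of the pathway were read from 6 lists, of which 53 of 54 genes were measured. In Tbx1 LOF the ligands leaned upward, with 3 of 11 higher and 1 lower at an unadjusted p under 0.05 and a median log2 fold change of 0.15, against -0.01 over all genes. Bmp2, a myocardial inducer, averaged 9.46 ± 0.28 in Tbx1 LOF and 9.02 ± 0.06 in control arrays (SD, n = 4 each), a log2 fold change of 0.44 ± 0.16 (SE; limma adjusted p = 0.86) with no overlap of the groups. Bmp4, the outflow tract ligand, and Gdf2, which encodes the endothelial ligand BMP9, had log2 fold changes of 0.15 and 0.20 (limma unadjusted p = 0.0468 and 0.0227), and Bmp3, a ligand that counteracts other BMPs, of -0.21 with no overlap. Bmp10, made by trabecular myocardium, had a log2 fold change of 0.57 ± 0.34 (SE; limma unadjusted p = 0.114), with all LOF arrays above the controls. None of the 11 ligands passed the adjusted threshold.

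In β-cat LOF the ligands leaned the other way, with 0 of 11 higher, 2 lower and a median log2 fold change of -0.07. Bmp5 had a log2 fold change of -0.49 ± 0.13 (SE; limma unadjusted p = 0.00118, adjusted p = 0.593) with no overlap of the groups. Bmp10 had one of -1.05 ± 0.34 (SE), but its control arrays ran from 6.91 to 9.69 and those of β-cat LOF from 6.68 to 7.21, so that the groups overlapped. In rescue 0 of the 53 pathway genes had an unadjusted p under 0.05, and the ligands had a median log2 fold change of 0.01.

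Of 13 further extracellular regulators measured, 2 had a higher and 1 a lower reading with loss of Tbx1 at an unadjusted p under 0.05. They were Bmper (log2 fold change 0.15), a modulator that binds BMPs, Tll1 (0.34), a protease that cleaves Chordin, and Fst (-0.48), which encodes the activin and BMP binding protein Follistatin. Fst ran from 8.71 to 9.81 in Tbx1 LOF and from 9.46 to 9.91 in control arrays, so the groups overlapped and the LOF group was the more variable. In β-cat LOF only Bmper passed the unadjusted threshold in this list, with a log2 fold change of -0.15. In rescue Tll2, a related protease, was at -0.08 with groups that did not overlap. Of 10 receptors and co-receptors, Rgma and Rgmb, membrane-anchored BMP co-receptors, were lower in Tbx1 LOF (log2 fold changes -0.23 and -0.21), and in β-cat LOF Rgma was higher (0.22) and the endothelial co-receptor Eng lower (-0.23). The 9 receptor Smads, Smad4 and their regulators included 0 genes at an unadjusted p under 0.05 in each of the 3 experiments, and the same held for the 3 E proteins to which Id proteins bind.

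Of the 7 other target genes, 2 were higher and 0 lower with loss of Tbx1 at an unadjusted p under 0.05. Hand1, a transcription factor of the heart, had a log2 fold change of 0.48 ± 0.14 (SE; limma unadjusted p = 0.00179, adjusted p = 0.46) with no overlap of the groups, and Tbx2, a repressor of chamber genes in outflow and canal myocardium, of 0.20 ± 0.07 (SE; limma adjusted p = 0.725). In β-cat LOF Tbx2 was at -0.16, with no overlap of the groups, and Id4, the fourth Id gene, at 0.20 (limma unadjusted p = 0.0296 and 0.0184). In rescue Atoh8 was at -0.07 with groups that did not overlap. Msx1, Msx2 and Tbx3 passed the unadjusted threshold in none of the 3 experiments.

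**Figure D3:**
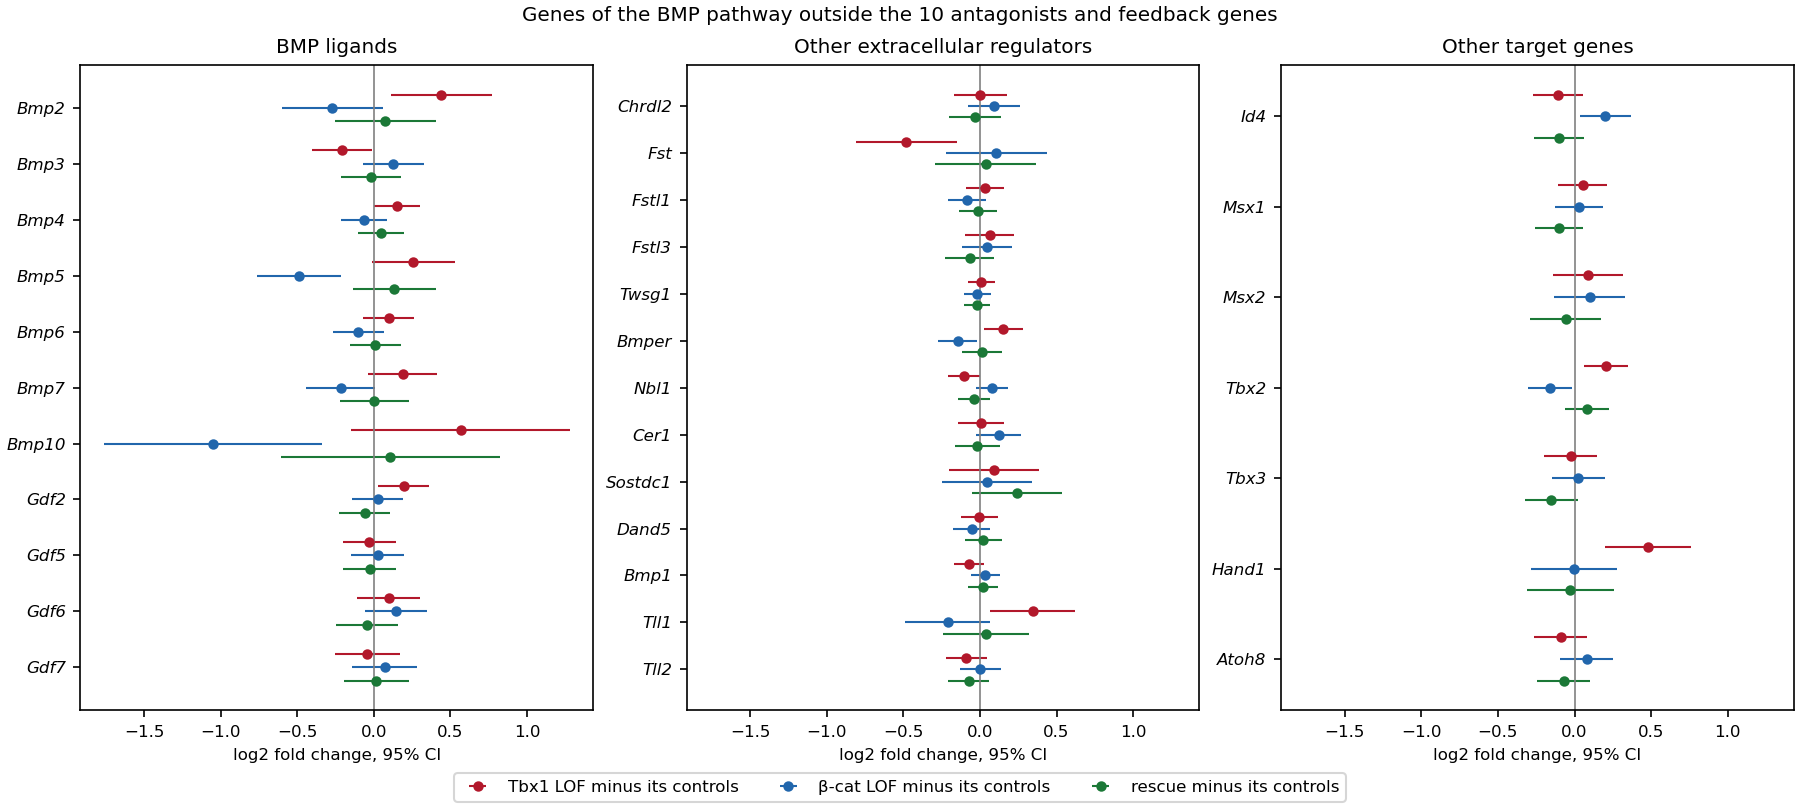
Log2 fold change (points) and 95% confidence interval from limma (bars) of 11 BMP ligands, 13 other extracellular regulators and 7 other target genes in Tbx1 LOF, β-cat LOF and rescue tissue, each minus its own controls. Bmp2 and Hand1 lie to the right in Tbx1 LOF, Bmp5 and Bmp10 to the left in β-cat LOF, and most other intervals hold 0.

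Markers of the heart tube and of other cell types moved on the same arrays as these genes. Many of the heart tube markers encode muscle structural proteins. The study reads the rise of such genes with loss of Tbx1 as premature differentiation within the AHF, found them reduced with loss of β-catenin, and tested some by qRT-PCR. Heart tube tissue in the dissection and muscle gene expression within the AHF cannot be told apart on these arrays. In Tbx1 LOF 8 of 11 heart tube markers were higher at an unadjusted p under 0.05 (median log2 fold change 0.66), and the list mean ran from 10.8 to 11.1 in Tbx1 LOF and from 9.89 to 10.5 in control arrays. Of 7 liver and gut markers 4 were higher, whereas 3 of 6 somite and 2 of 7 neural tube markers were lower, and 0 of 10 endothelial markers passed. Among 6 surface ectoderm markers, the keratins Krt8 (log2 fold change 0.27) and Krt18 (0.16) were higher, whereas Trp63, a defining basal marker, was at -0.11 with all LOF arrays below the controls. Tbx1 LOF replicate 1, with the highest Bambi and Smad7 and the lowest Grem1 reading of its group, had the highest surface ectoderm list mean. Its neural tube list mean was 8.71, against 9.11 to 9.55 in the other LOF arrays. Tbx1 LOF replicate 2 had nearly as low a Grem1 reading (9.42, against 9.37 in replicate 1) but the highest neural tube list mean of the group, 9.55. In rescue 0 of 11 heart tube markers passed, but 9 of 11 had a positive log2 fold change, with a median of 0.25. Their list mean ran from 9.996 to 10.6 in rescue and from 9.66 to 10.6 in control arrays. Between Tbx1 LOF and rescue the changes of 0 of 11 markers differed at an unadjusted p under 0.05. All 11 were nevertheless larger in Tbx1 LOF, with a median difference of 0.39. How far cell composition enters the readings of the 10 genes was not tested.

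**Figure D4:**
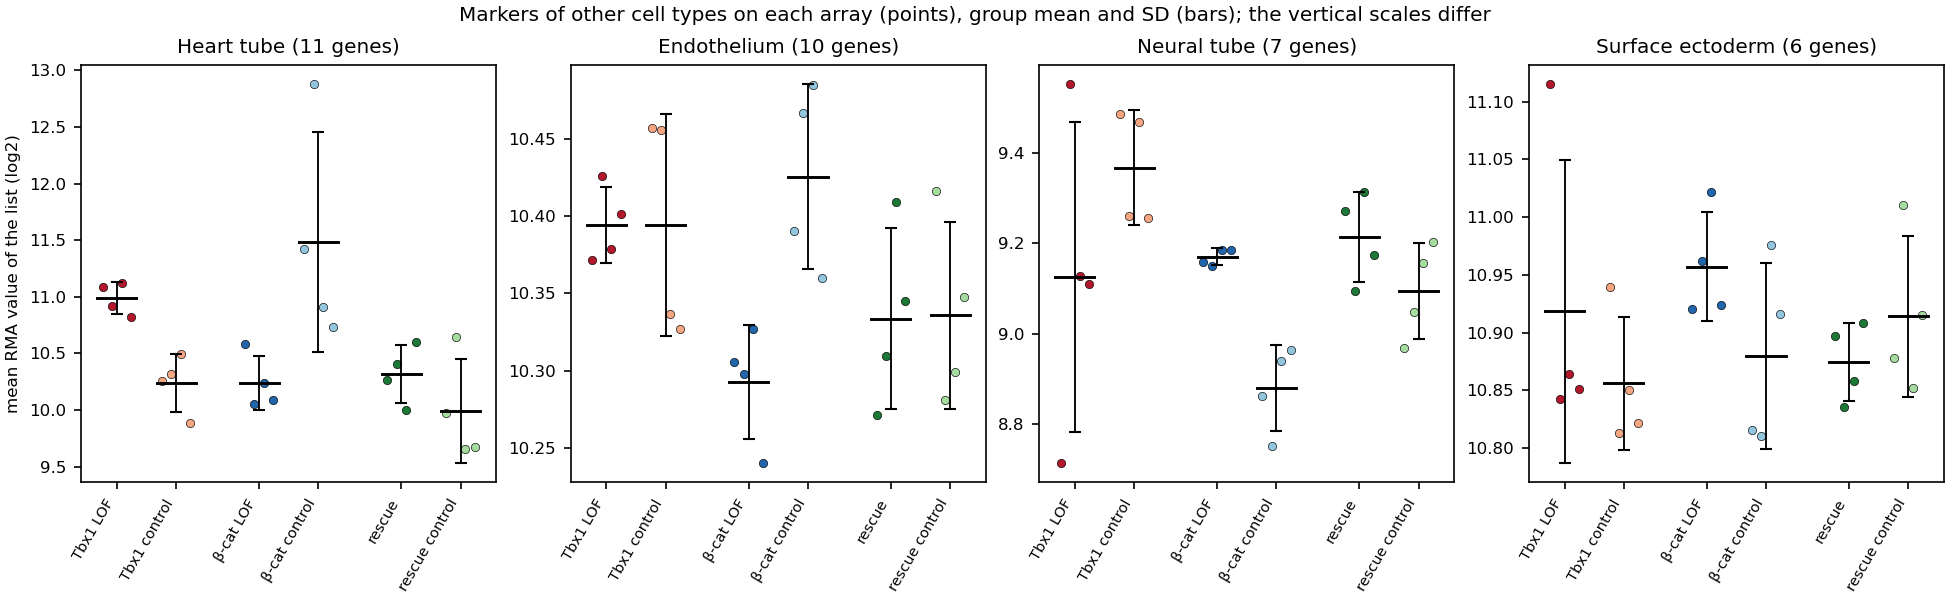
Mean RMA value (log2 scale) of 4 marker lists on each of the 24 arrays; points are arrays in replicate order, horizontal lines the group means and bars the SD over 4 arrays, and the vertical scales differ between panels. Heart tube markers are higher in all Tbx1 LOF arrays than in their controls, and control replicate 2 of the β-cat experiment reaches 12.9.

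Finally, the genes whose deviations from the group means were most like those of each of the 10 over the 24 arrays were listed, which describes shared array-to-array variation, including that of tissue content and batch. Bambi was closest to Grhl3, an epithelial transcription factor (Pearson r = 0.849), and Gabrp (0.825). Smad6 was closest to Nfatc1, which marks endocardium (0.839), and Smad7 to B4galnt2 (0.882). Grem1 was closest to Hoxa3, a patterning gene of the caudal pharyngeal arches (0.85), and Fzd2, a Wnt receptor (0.843), and Chrdl1 to Utp4 (0.834). Id1 was closest to Spry1, a feedback inhibitor of FGF signaling (0.959), and Id3 to Aimp2 (0.952), and among the 10 genes themselves Id1 and Id3 were the most alike pair (0.71). Id2 had no gene above 0.717 (Cdh3), while Nog and Chrd were closest to Qk (0.905) and Cdv3 (0.895).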

How the data were processed

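Total RNA (100 ng) of pooled micro-dissected AHFs was amplified, biotin-labeled and hybridized to 24 arrays. Per the study's methods the authors pre-processed the arrays with the oligo package (RMA: background correction, quantile normalization and summarization), so the deposited values are log2 expression values per probe set. The methods also describe removal of batch effects with ComBat and exclusion of poor arrays. No source used here says whether the deposited log2 values had been through ComBat, and no label names an array's batch. Values ran from 3.62 to 14.56 and array medians from 8.00 to 8.14.

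Of 35556 probe sets, 21789 had 1 gene symbol in the platform annotation, 1621 several and 12146 none. Those with 1 symbol were averaged per gene, and symbols were updated through the gene ID for 19856 of 19938 genes. The 6 group means were fitted over all 24 arrays with limma 3.58.1 in R 4.3.3 (lmFit, contrasts, eBayes), with Benjamini-Hochberg adjustment over 19938 genes and a threshold of 0.05. Single genes were also tested with a two-sided exact permutation test of 4 against 4 arrays, in which no p under 0.0286 is possible. Precision is limited by 4 arrays in each group. The labels do not say that replicates came from separate litters, so p-values measure the spread between these pools only. The script was tested on simulated data. The methods' batch term could not be rebuilt. Alternatives were separate fits, a replicate block, replicates 1 and 2 against 3 and 4 as a term, the brightest probe set, renewed quantile normalization, median centring, a filter on level, a trended robust spread, array weights and leaving out each array. Deviations of same-numbered Tbx1 LOF and control arrays correlated at 0.158 to 0.494, over the criterion of 0.1 for every pair. Those of Tbx1 LOF replicates 1, 2 and 3 correlated more with a control of another number (0.4025, 0.4068 and 0.4311), so the numbers do not establish pairs. The values given come from the fit without pairs, and those of the replicate block are given where they differ. Same-number correlations were 0.0889 to 0.479 for β-cat and -0.06 to 0.26 for rescue.

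The 10 genes and the gene lists were chosen with earlier results of these data known. Beyond the 10 genes, the text names pathway genes with an unadjusted p under 0.05 or groups that do not overlap, up to 4 others per list, markers that move with a result, and the most alike genes of each. Lists of endoderm, neural crest, notochord and erythroid markers (4 to 8 genes measured) had, with loss of Tbx1, at most 1 gene in each direction past the unadjusted threshold. In β-cat LOF they had 0 to 2 higher genes and 0 lower, and in rescue 1 higher gene among all of them. Small changes could still share a sign within a list. Of the 8 neural crest markers 0 had a positive log2 fold change in Tbx1 LOF (median -0.12), 8 in β-cat LOF (0.10) and 1 in rescue (-0.08). All 6 erythroid markers were positive in Tbx1 LOF (median 0.15).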

Additional observations from a re-analysis of the deposited data

Results flagged for a closer look

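Within each group of 4 arrays, the gap between the most extreme array and its nearest neighbour was set against the group's range, and a ratio above 0.829 (Dixon's critical value) was taken as an array far from the others. This was done for 60 groups of values, and chance alone marks about 1 in 20. In 5 groups an array stood apart. Grem1 was lowest in rescue replicate 1 (ratio 0.896), where it read 9.68 against 9.86 to 9.88 on the other rescue arrays. Chrdl1 was highest in rescue replicate 2 (0.852), with 8.75 against 8.56 to 8.59 on the other arrays. Bambi was lowest in Tbx1 control replicate 2 (0.85), with 10.84 against 11.05 to 11.08, and without that array its log2 fold change in Tbx1 LOF was 0.27, against 0.33 with it. Nog was highest in Tbx1 control replicate 4 (0.912), and Chrd was highest in Tbx1 LOF replicate 3 (0.838).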

How the results depend on the processing

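Over all alternatives the log2 fold change in Tbx1 LOF lay between -0.47 and -0.35 for Chrdl1, between -0.48 and -0.28 for Grem1 and between 0.25 and 0.38 for Bambi. Of 14 changes of single genes with an unadjusted p under 0.05, each recomputed under its alternatives (294 values), 0 reversed, 244 kept their side of that threshold and 50 did not. In Tbx1 LOF the number of the 10 genes with an adjusted p under 0.05, 0 in the fit reported above, was 1 (Chrdl1) with replicates 1 and 2 against 3 and 4 as a term and 0 to 1 when single arrays were left out, the 1 being Chrdl1 without Tbx1 LOF replicate 2. Its adjusted p ranged from 0.0262 to 0.675 over the alternatives. Of all genes, that replicate term called 1 higher and 9 lower at the adjusted threshold, against 1 and 5 as reported. The fit without Tbx1 LOF replicate 2 called 5 higher and 27 lower. The number at an unadjusted p under 0.05, 5 as reported, was 3 when each experiment was fitted alone and 3 to 5 without single arrays. It was 3 without Tbx1 LOF replicate 1 or Tbx1 control replicate 4. Of all genes, 386 were higher and 228 lower at that threshold in the separate fit, against 433 and 388 as reported. Without Tbx1 LOF replicate 1 there were 247 higher and 361 lower, and without Tbx1 control replicate 4 there were 319 and 456. For the difference between Tbx1 LOF and β-cat LOF the adjusted count was 1 (Chrdl1) with the same replicate term, against 0 as reported. It was 0 to 1 without single arrays (1 without Tbx1 LOF replicate 2 or β-cat control replicate 4). Of all genes, that term called 100 with a higher and 20 with a lower change, against 6 and 4 as reported. Without β-cat control replicate 4 there were 149 and 20, and without Tbx1 LOF replicate 2 there were 11 and 24. With the replicate block (same-numbered mutant and control arrays paired, 9 residual degrees of freedom) Tbx1 LOF kept 5 genes at an unadjusted p under 0.05 and 0 adjusted. In every experiment the labels give same-numbered arrays only the number in common. The block gave 4 genes in β-cat LOF (Smad6, Chrdl1, Id1 and Id3), against 1 as reported, and 0 in rescue. It moved no other count of the 10 genes by over 1.5 times. Of all 19938 genes, the block called 850 higher and 938 lower in β-cat LOF, against 565 and 575 as reported. In Tbx1 LOF it called 598 higher and 513 lower, against 433 and 388. Smad6, the only one of the 10 past the unadjusted threshold in β-cat LOF as reported, was lost in 5 of 17 alternatives. Without single arrays the count was 0 to 3 (0 without control replicate 2 or LOF replicate 4, 3 without LOF replicate 1). Of all genes, leaving out LOF replicate 1 gave 804 higher and 684 lower in β-cat LOF. Leaving out control replicate 2 gave 363 higher and 283 lower, and leaving out LOF replicate 4 gave 241 and 345. In rescue the unadjusted count, 0 as reported, was 1 with each experiment fitted alone, with the replicate term and without control replicate 4, and 2 with array weights. Of all genes, array weights called 488 higher and 729 lower in rescue, against 74 and 179 as reported. The separate fit called 271 higher and 556 lower. Between Tbx1 LOF and rescue, the 2 genes of the unadjusted count became 0 without Tbx1 control replicate 2. The cause of these shifts was not tested. The other adjusted counts were 0 under every alternative run. With 4 arrays in each group, log2 differences well under 0.2 were within the error of most of the 10 genes.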
